A study of Mus musculus with 12 samples.

Results

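The genes of glycolysis and of the response to low oxygen were followed through 3 lines of mouse embryonic stem cells. The list has 39 genes, 17 glycolytic enzymes and 22 other genes known as hypoxia targets, and was matched by symbol to the 18322 genes of the array. Of these, 38 were found (16 of 17 enzymes and 22 of 22 other targets), and the enolase Eno1 had no probe with its symbol. Pkm2 and Ero1l, now named Pkm and Ero1a, stood on the array under the older names. Where a gene had several probes, the one with the highest mean raw signal stood for it.

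The cells were IB10, an E14 embryonic stem cell line, and carried a pLKO-puro lentivirus with shKdm5c#1 or shKdm5c#2, hairpins against the H3K4 demethylase gene Kdm5c, or with a non-targeting control hairpin. Each line was 1 polyclonal pool of colonies that survived puromycin, grown on gelatin in high-glucose medium with pyruvate, serum and LIF, and no oxygen level is stated. RNA of 4 cultures per line, A to D, was hybridised on 2-colour arrays against RNA of untreated IB10 cells, which were not infected or selected. The sample was in Cy3 for cultures A and C and in Cy5 for cultures B and D.

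Glycolysis breaks glucose down to pyruvate, and lactate dehydrogenase turns pyruvate into lactate when it does not enter mitochondria. When oxygen is low, the prolyl hydroxylases of the Egln family no longer mark Hif1a for destruction by Vhl, and Hif1a pairs with Arnt and binds promoters that hold the core motif ACGTG or GCGTG. Its targets include most glycolytic enzymes, the glucose transporter Slc2a1, the lactate exporter Slc16a3, the pyruvate dehydrogenase kinase Pdk1, the mitophagy receptor Bnip3 and the collagen prolyl hydroxylases. Pluripotent stem cells are known for high glycolytic flux also where oxygen is plentiful.

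All values are log2. A level is sample over IB10 RNA with the dye effect removed, a difference is one line minus another, and a gene was called when its limma p-value, adjusted by Benjamini-Hochberg over all 18322 genes, was under 0.05. Levels of different probes cannot be compared. With 4 cultures a line, the standard error of a knockdown minus control difference was 0.040 in the median gene. The p-values rest on cultures drawn from a single pool per hairpin, so the hairpin and other differences between pools cannot be told apart, nor can fewer cells of a type and less RNA per cell. The labels name the same IB10 RNA, IB10 A, on all 12 arrays, and it is taken here as 1 preparation, whose own spread was not measured. Across all genes, cultures from the same line correlated with each other at r = 0.503 to 0.847. In the sample channel, 84.4% to 96.4% of an array's gene spots exceeded background. Of the members, 37 of 38 did so on all 12 arrays, the exception being Gapdh.

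Kdm5c itself averaged -0.62 ± 0.12 in shKdm5c#1 and -0.68 ± 0.03 in shKdm5c#2, against 0.02 ± 0.05 in the control line (SD, n = 4 each). That is 64.1% of the control level with shKdm5c#1 and 61.7% with shKdm5c#2. In all 8 knockdown cultures it lay below every control culture. The size depends on the probe. Of the 2 dimmer Kdm5c probes, 1 gave -0.98 with shKdm5c#1 and -0.99 with shKdm5c#2 (limma over all probes, adjusted p = 7.65e-10 and 1.95e-10), and the dimmest gave -0.10 with shKdm5c#1 and -0.04 with shKdm5c#2 (limma over all probes, adjusted p = 0.143 and 0.689).

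The 2 knockdown lines differed from the control line in opposite directions for different members of the list. In both lines the glycolytic enzymes Pfkm, Pfkp, Tpi1 and Pkm2, the lactate exporter Slc16a3, Bnip3, Ndrg1 and the histone demethylase gene Kdm3a stood higher. The collagen prolyl hydroxylases P4ha1 and P4ha2, the oxygen sensor Egln3 and the peptide hormone gene Adm stood lower in both. Leaving out certain single cultures lost the shKdm5c#1 calls of Pfkp, Tpi1, Pkm2 and Bnip3 and the shKdm5c#2 call of Kdm3a, as given below. With shKdm5c#1, 11 of the 38 members rose and 6 fell, beside 18.6% of all genes called in that comparison (8.99% higher and 9.62% lower). With shKdm5c#2, 15 rose and 6 fell, beside 22.2% of all genes (9.94% higher and 12.3% lower). The members are brighter than most genes, 20 of 38 lying in the brightest 25% of genes, where 29.5% were called with shKdm5c#1 and 33.3% with shKdm5c#2. For 11 members all shKdm5c#1 cultures lay above all control cultures and for 7 all lay below, beside 13% and 13.7% of all genes. For shKdm5c#2 these were 14 and 7 members, beside 11.1% and 13% of all genes. Both comparisons share the 4 control arrays.

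**Figure D1:**
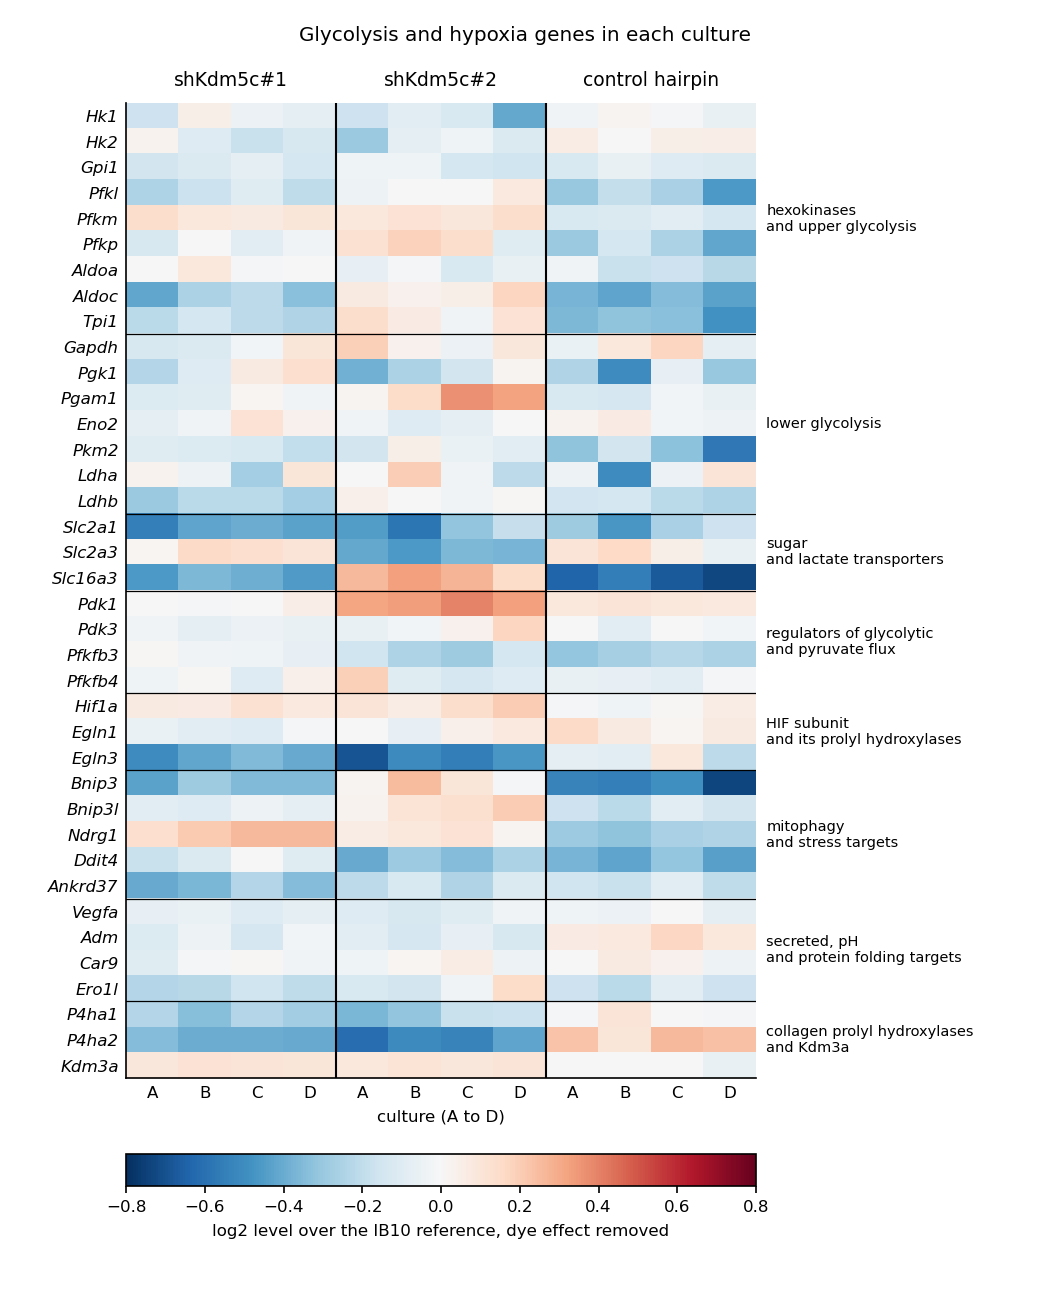
Log2 level over the IB10 reference (colour, dye effect removed) of the 38 members (down the page, grouped by role) in the 12 cultures (across), with shKdm5c#1 at the left, shKdm5c#2 in the middle and the control hairpin at the right. Slc16a3 and Bnip3 are blue in the control cultures and in shKdm5c#1 and are not in most shKdm5c#2 cultures, and P4ha2 is blue in all 8 knockdown cultures and red in the 4 control cultures.

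Among the 16 glycolytic enzymes, 5 rose and 0 fell with shKdm5c#1 (median difference 0.08, range -0.13 to 0.24), and 8 rose and 1 fell with shKdm5c#2 (median 0.15, range -0.17 to 0.47). The other 22 hypoxia targets went both ways: 6 rose and 6 fell with shKdm5c#1 (median -0.03), and 7 rose and 5 fell with shKdm5c#2 (median 0.04), with wider ranges of -0.59 to 0.49 with shKdm5c#1 and -0.72 to 0.90 with shKdm5c#2. The median over all genes was within 0.01 of 0 in both. Every enzyme that rose with shKdm5c#1 had a difference of 0.22 or less.

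**Figure D2:**
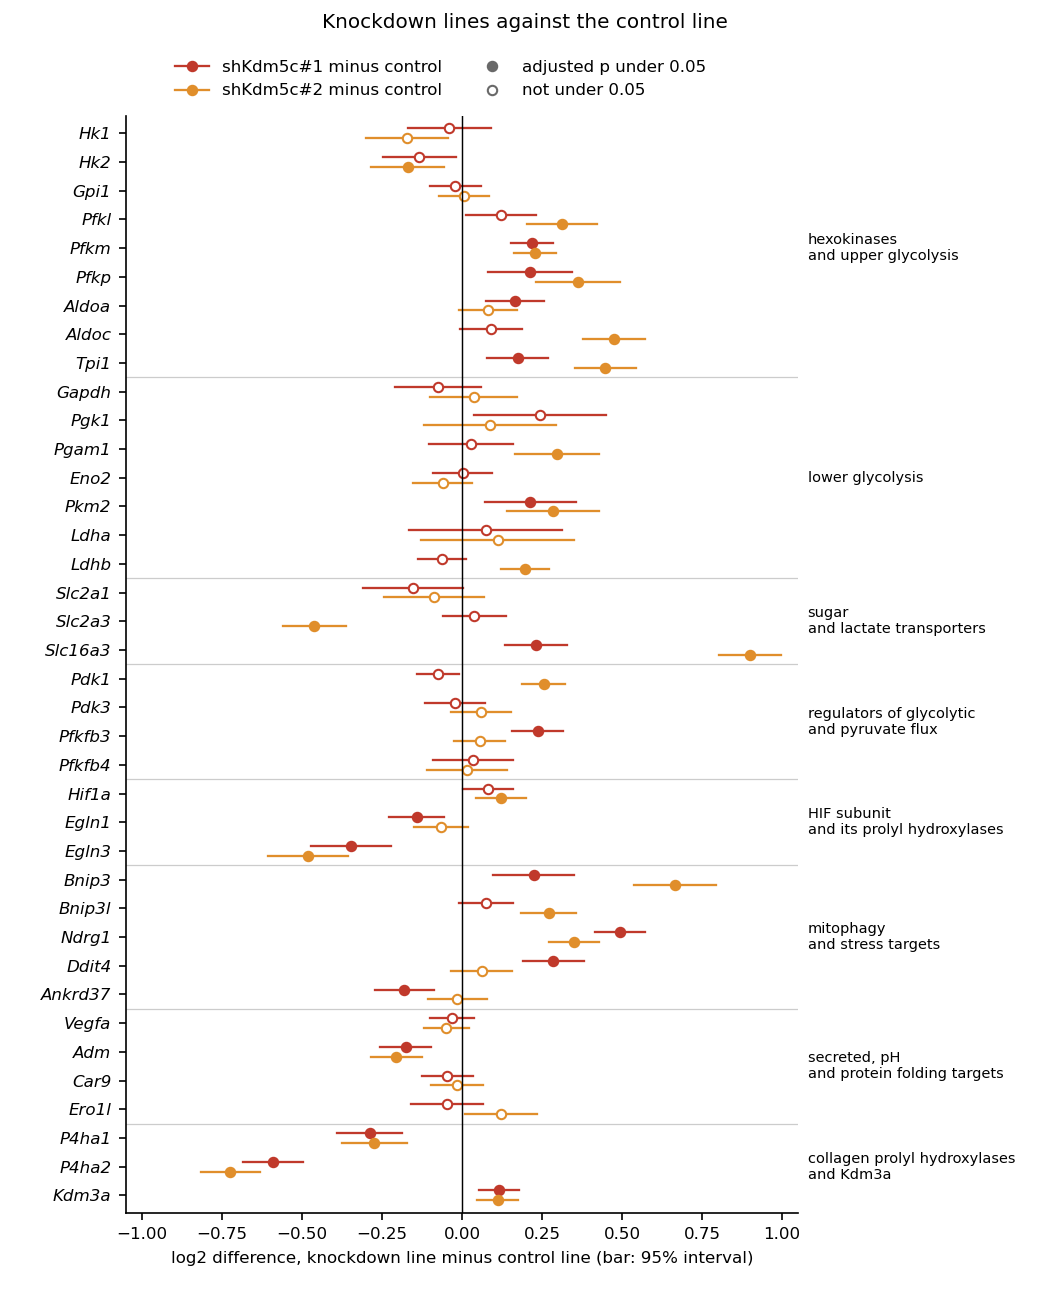
Log2 difference of each knockdown line from the control line (points, with 95% intervals from limma) for the 38 members by role, shKdm5c#1 above shKdm5c#2 within each gene, with filled points where the adjusted p is under 0.05. The largest rise is Slc16a3 with shKdm5c#2 (0.90) and the largest fall is P4ha2 with shKdm5c#2 (-0.72).

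Promoters of 6 members that moved are printed to show where the HIF core motif lies in them. Each is the 250 bases before the RefSeq start on GRCm38.p6, 5′ to 3′ on the gene's strand, with every ACGTG or GCGTG on either strand (CACGT or CACGC when read on the other) in capitals. P4ha2 is at chr11:54100674-54100923 (+), P4ha1 at chr10:59323046-59323295 (+) and Egln3 at chr12:54203875-54204124 (-), and these 3 genes fell. Slc16a3 is at chr11:120948817-120949066 (+), Bnip3 at chr7:138909507-138909756 (-) and Tpi1 at chr6:124814159-124814408 (-), and these rose.
P4ha2: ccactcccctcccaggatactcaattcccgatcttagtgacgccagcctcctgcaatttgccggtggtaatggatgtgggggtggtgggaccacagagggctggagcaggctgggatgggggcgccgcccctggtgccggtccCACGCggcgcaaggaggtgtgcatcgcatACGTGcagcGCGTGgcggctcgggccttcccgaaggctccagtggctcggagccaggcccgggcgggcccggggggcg
P4ha1: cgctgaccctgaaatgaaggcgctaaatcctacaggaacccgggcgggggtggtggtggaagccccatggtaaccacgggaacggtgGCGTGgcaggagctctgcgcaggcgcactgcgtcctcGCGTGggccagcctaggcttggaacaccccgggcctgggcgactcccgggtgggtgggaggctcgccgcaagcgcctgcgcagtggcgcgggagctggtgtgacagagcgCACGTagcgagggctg
Egln3: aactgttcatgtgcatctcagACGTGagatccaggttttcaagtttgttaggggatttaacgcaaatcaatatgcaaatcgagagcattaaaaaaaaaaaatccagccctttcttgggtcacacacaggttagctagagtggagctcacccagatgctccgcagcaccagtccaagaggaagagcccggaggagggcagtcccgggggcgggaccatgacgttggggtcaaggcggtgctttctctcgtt
Slc16a3: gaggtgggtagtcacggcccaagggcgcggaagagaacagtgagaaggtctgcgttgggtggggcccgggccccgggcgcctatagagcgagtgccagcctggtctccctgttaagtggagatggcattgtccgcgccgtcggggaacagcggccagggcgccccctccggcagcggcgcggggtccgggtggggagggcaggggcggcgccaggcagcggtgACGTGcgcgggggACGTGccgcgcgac
Bnip3: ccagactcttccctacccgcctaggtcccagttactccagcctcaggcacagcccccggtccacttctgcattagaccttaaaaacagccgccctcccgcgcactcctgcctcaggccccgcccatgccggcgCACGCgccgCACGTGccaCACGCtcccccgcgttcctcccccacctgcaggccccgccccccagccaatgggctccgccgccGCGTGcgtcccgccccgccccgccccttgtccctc
Tpi1: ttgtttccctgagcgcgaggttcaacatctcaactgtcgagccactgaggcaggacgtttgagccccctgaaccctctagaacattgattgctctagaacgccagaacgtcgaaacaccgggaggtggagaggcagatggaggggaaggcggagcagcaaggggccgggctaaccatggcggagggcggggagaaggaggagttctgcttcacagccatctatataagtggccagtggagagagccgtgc

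P4ha2 and P4ha1 had 3 matches each, Egln3 1 and Slc16a3 2, both within a short stretch near its start. Bnip3 had 5, of which 2 overlap in CACGTG, a palindrome that is counted on both strands. Tpi1 had 0 in this window. Of the 35 members on the array with a RefSeq promoter entry, 32 (91.4%) held the motif in at least 1 of their promoters, 13 of 16 enzymes and 19 of 19 other targets. Over all 32851 mouse promoters of the same length, 38.6% held it, and counted by gene as for the members, 41.5% of 27025 genes did. Genes that rose and genes that fell both held the motif, and a match is a description of the letters and not of binding.

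By the brightest probe of each gene, most called rises among the enzymes were in upper glycolysis, from hexokinase to triose phosphate isomerase. Of these 9 upper genes, 4 rose with shKdm5c#1 and 5 with shKdm5c#2, where 1 (Hk2) fell. These calls make 44.4% and 66.7% of the upper genes, beside 18.6% and 22.2% of all genes. In lower glycolysis, second probes of Ldha (both lines) and Pgk1 (shKdm5c#1) also rose, as given below, so this split depends on the probe. Tpi1, the triose phosphate isomerase, read -0.21, -0.14, -0.21 and -0.24 in cultures A to D of shKdm5c#1, 0.14, 0.06, -0.03 and 0.12 in shKdm5c#2, and -0.36, -0.32, -0.34 and -0.49 in the control line. All 8 knockdown cultures lay above all control cultures, with those of shKdm5c#2 on top. The differences from control were 0.17 with shKdm5c#1 (SE 0.045, adjusted p = 0.0120) and 0.45 with shKdm5c#2 (adjusted p = 1.66e-06). The first was lost without control culture D (0.13, adjusted p = 0.0506) and without shKdm5c#1 culture B (0.15, adjusted p = 0.0514).

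Aldoc, the brain-type aldolase, moved in 1 knockdown line. It read -0.41, -0.25, -0.21 and -0.33 in shKdm5c#1, 0.07, 0.04, 0.05 and 0.17 in shKdm5c#2, and -0.37, -0.42, -0.35 and -0.43 in the control line. The shKdm5c#1 cultures overlapped the control cultures, and the shKdm5c#2 cultures lay above both. The difference was 0.47 with shKdm5c#2 (SE 0.046, adjusted p = 9.75e-07) and 0.09 with shKdm5c#1 (95% interval -0.01 to 0.19, adjusted p = 0.217). Aldoa, the main aldolase of most tissues, gave 0.16 with shKdm5c#1 (adjusted p = 0.0119) and 0.08 with shKdm5c#2 (adjusted p = 0.204). Without control culture D or shKdm5c#1 culture B, the Aldoa rise became 0.14 in each case (adjusted p = 0.0518 and 0.0521), while its second probe rose by 0.23 with shKdm5c#1 and by 0.17 with shKdm5c#2 (limma over all probes, adjusted p = 0.00267 and 0.0137).

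Phosphofructokinase, the committed step of glycolysis, is made from 3 genes, and all 3 rose with shKdm5c#2. Pfkl, the liver type, read -0.25, -0.17, -0.10 and -0.20 in shKdm5c#1, -0.04, 0.00, 0.00 and 0.08 in shKdm5c#2, and -0.30, -0.19, -0.26 and -0.46 in the control line. Its shKdm5c#2 cultures lay above all control cultures (difference 0.31, adjusted p = 0.000258), and its shKdm5c#1 cultures overlapped them (0.12, adjusted p = 0.125). Pfkp, the platelet type, read -0.13, 0.00, -0.09 and -0.03 in shKdm5c#1, 0.12, 0.18, 0.14 and -0.10 in shKdm5c#2, and -0.30, -0.14, -0.25 and -0.41 in the control line. Neither knockdown line overlapped the control cultures, though culture A of shKdm5c#1 and B of the control line lay close, and the differences were 0.21 with shKdm5c#1 (adjusted p = 0.0237) and 0.36 with shKdm5c#2 (adjusted p = 0.000361). The shKdm5c#1 call for Pfkp was lost without any 1 of control cultures A and D and shKdm5c#1 cultures B and D (0.16 to 0.20, adjusted p = 0.0640 to 0.0991). Pfkm, the muscle type, rose by 0.22 with shKdm5c#1 and by 0.23 with shKdm5c#2 (adjusted p = 9.91e-05 and 4.40e-05).

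Of the first steps, Hk2, the inducible hexokinase, gave -0.13 with shKdm5c#1 (adjusted p = 0.108) and fell by 0.17 with shKdm5c#2 (adjusted p = 0.0327). That call was lost without shKdm5c#2 culture A (-0.11) and without control culture A, C or D (-0.16 to -0.17, adjusted p = 0.0772 to 0.116 over the 4). Hk1 gave -0.04 with shKdm5c#1 and -0.17 with shKdm5c#2 (adjusted p = 0.741 and 0.0517). Gpi1, the glucose phosphate isomerase, gave -0.02 with shKdm5c#1 and 0.01 with shKdm5c#2 (adjusted p = 0.787 and 0.932). The interval for Gpi1 ran from -0.10 to 0.06 with shKdm5c#1 and from -0.07 to 0.09 with shKdm5c#2.

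In the lower part, by the brightest probe of each gene, 1 of 7 measured genes rose with shKdm5c#1 and 3 with shKdm5c#2, and 0 fell. These calls make 14.3% and 42.9% of the lower genes, beside 18.6% and 22.2% of all genes. Pkm2, the array's name for the muscle pyruvate kinase, read -0.10, -0.11, -0.12 and -0.20 in shKdm5c#1, -0.14, 0.05, -0.05 and -0.09 in shKdm5c#2, and -0.32, -0.15, -0.33 and -0.57 in the control line. The control cultures spread over more than the knockdown lines, and control culture B lay inside the range of shKdm5c#1. Its differences were 0.21 with shKdm5c#1 (adjusted p = 0.0356) and 0.28 with shKdm5c#2 (adjusted p = 0.00529). The first was lost without any 1 of control cultures A, C and D or shKdm5c#1 cultures A, B and C (0.13 to 0.22, adjusted p = 0.0653 to 0.113). Pgam1, the phosphoglycerate mutase, read -0.11, -0.10, 0.01 and -0.03 in shKdm5c#1, 0.02, 0.15, 0.37 and 0.32 in shKdm5c#2, and -0.12, -0.13, -0.02 and -0.06 in the control line. Its shKdm5c#2 cultures lay above all others (difference 0.30, adjusted p = 0.00199), and the shKdm5c#1 difference was 0.03 (adjusted p = 0.832). Ldhb, the heart-type lactate dehydrogenase, rose by 0.20 with shKdm5c#2 (adjusted p = 0.000611) and gave -0.06 with shKdm5c#1 (adjusted p = 0.282).

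Several of the lower enzymes lie at the top of the signal range, where the dyes read differently. The log2 ratio with the sample in Cy5 minus that with the sample in Cy3 was 2.48 for the Ldha probe, 1.19 for Pgk1, 0.54 for Pgam1 and 0.41 for Pkm2. For the other 34 members it lay between -0.20 and 0.21. The Ldha spot passed 65000, near the top of the scale, on 2 arrays in the reference channel. Ldha, the muscle-type lactate dehydrogenase, gave 0.07 with shKdm5c#1 and 0.11 with shKdm5c#2 by this probe (adjusted p = 0.734 and 0.570), with intervals of -0.16 to 0.31 and -0.13 to 0.35. Its second probe, with a mean raw signal of 9663 and a dye effect of 0.05, rose by 0.29 with shKdm5c#1 and by 0.42 with shKdm5c#2 (SE 0.044, limma over all probes, adjusted p = 0.000192 and 2.49e-06). Pgk1, the phosphoglycerate kinase, gave 0.24 with shKdm5c#1 and 0.09 with shKdm5c#2 (adjusted p = 0.0985 and 0.621). Its second probe, also with a large dye effect (0.66), gave 0.31 with shKdm5c#1 and 0.18 with shKdm5c#2 (limma over all probes, adjusted p = 0.00954 and 0.130).

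**Figure D3:**
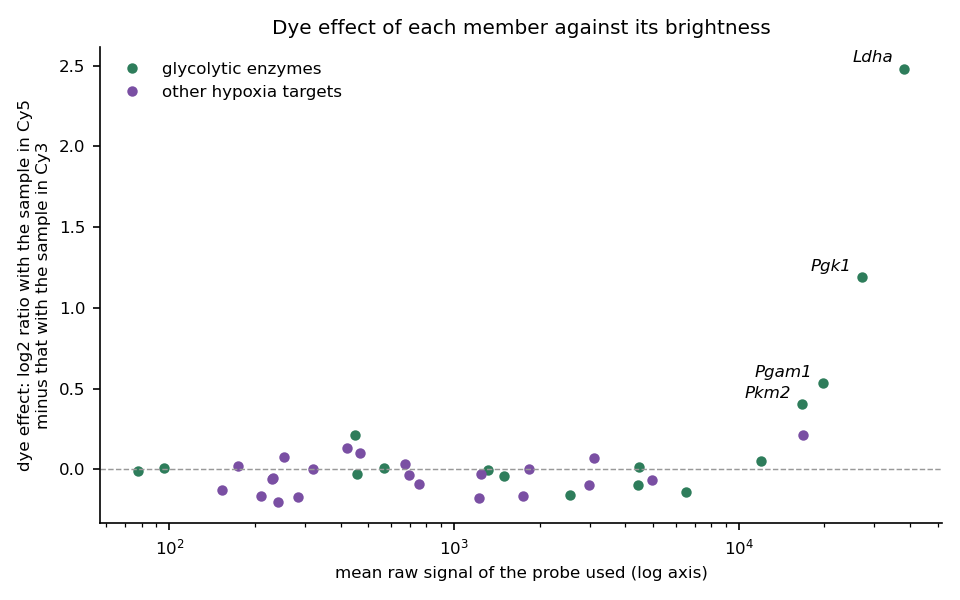
Dye effect of each of the 38 members (log2 ratio with the sample in Cy5 minus that with the sample in Cy3) against the mean raw signal of its probe (log axis), with glycolytic enzymes in green and other hypoxia targets in purple. Pkm2 (0.41), Pgam1 (0.54), Pgk1 (1.19) and Ldha (2.48) rise away from the rest at the bright end.

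Pkm2, Tpi1, Pfkp and Aldoc, and outside the enzymes Slc2a3 and Pfkfb3, also had dim probes, which did not all share the call. The 2 other Pkm2 probes (mean raw signal 131 and 86.4) and the other Tpi1 probe (78.9) gave -0.03 to 0.03 in both knockdown lines. Of the other Pfkp probes, 1 rose in both lines (0.30 with shKdm5c#1 and 0.43 with shKdm5c#2) and the dimmer gave -0.03 with shKdm5c#1 and fell by 0.10 with shKdm5c#2. With shKdm5c#2, the other Aldoc probe (77.3) gave 0.04 and the other Slc2a3 probe (57.5) gave -0.02. With shKdm5c#1, the other Pfkfb3 probes (86.1 and 85.4) gave 0.06 and -0.02. The Pfkp rises were called with shKdm5c#1 and shKdm5c#2 (limma over all probes, adjusted p = 0.00338 and 0.000104). So was the Pfkp fall with shKdm5c#2 (limma over all probes, adjusted p = 0.0476). The dim probes of the other genes named here were not called.

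Gapdh and Eno2 gave little information at the dim end. The only Gapdh probe had a mean raw signal of 95.8, stood above background on 11 of 12 arrays and gave -0.08 with shKdm5c#1 and 0.04 with shKdm5c#2 (adjusted p = 0.503 and 0.772). Eno2, the neuronal enolase, had a mean raw signal of 77.7 and gave 0.00 with shKdm5c#1 and -0.06 with shKdm5c#2 (adjusted p = 0.979 and 0.395).

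Among the transporters, the lactate exporter Slc16a3 (also called Mct4) gave the largest difference of all members. Its level was -0.46, -0.36, -0.39 and -0.46 in shKdm5c#1, 0.26, 0.33, 0.27 and 0.14 in shKdm5c#2, and -0.64, -0.55, -0.67 and -0.73 in the control line. The 3 lines did not overlap, and shKdm5c#2 was the line above IB10. The rise over control was 0.90 with shKdm5c#2 (1.87-fold, SE 0.046, adjusted p = 4.92e-10) and 0.23 with shKdm5c#1 (1.17-fold, adjusted p = 0.00168). Its promoter, printed above, held 2 ACGTG.

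Slc2a3, a high-affinity glucose transporter, went the other way in shKdm5c#2. It read 0.02, 0.15, 0.13 and 0.10 in shKdm5c#1, -0.41, -0.46, -0.36 and -0.37 in shKdm5c#2, and 0.10, 0.16, 0.04 and -0.06 in the control line. The 4 cultures of shKdm5c#2 stood apart below the other 8 (difference from control -0.46, SE 0.046, adjusted p = 1.53e-06), and shKdm5c#1 overlapped the control (0.04, adjusted p = 0.663). Slc2a1, the glucose transporter that serves as a standard hypoxia target, gave -0.15 with shKdm5c#1 and -0.09 with shKdm5c#2 (adjusted p = 0.183 and 0.472), and the cultures of all 3 lines overlapped.

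Of the 4 kinases that steer sugar and pyruvate, a different 1 rose in each knockdown line. Pdk1, which holds pyruvate back from mitochondria, rose by 0.26 with shKdm5c#2 (SE 0.032, adjusted p = 1.46e-05) and gave -0.08 with shKdm5c#1 (adjusted p = 0.120). A second Pdk1 probe gave 0.23 with shKdm5c#1 and 0.27 with shKdm5c#2 (limma over all probes, adjusted p = 0.0481 and 0.0179), so the probes differ in shKdm5c#1. Pfkfb3, which makes the activator of phosphofructokinase, rose by 0.24 with shKdm5c#1 (adjusted p = 0.000249) and gave 0.06 with shKdm5c#2 (adjusted p = 0.348). Pdk3 gave -0.02 with shKdm5c#1 and 0.06 with shKdm5c#2, and Pfkfb4 gave 0.03 with shKdm5c#1 and 0.02 with shKdm5c#2 (adjusted p = 0.413 to 0.893 for the 4 values).

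Both prolyl hydroxylases of the Egln family on the list fell with shKdm5c#1, and Egln3 also with shKdm5c#2. Egln3, the prolyl hydroxylase that is itself a HIF target, read -0.50, -0.41, -0.35 and -0.40 in shKdm5c#1, -0.69, -0.51, -0.55 and -0.46 in shKdm5c#2, and -0.08, -0.09, 0.08 and -0.21 in the control line. All knockdown cultures lay below all control cultures, which were themselves near IB10. The differences were -0.35 with shKdm5c#1 (SE 0.059, adjusted p = 0.000480) and -0.48 with shKdm5c#2 (adjusted p = 1.35e-05). Egln1, the main HIF prolyl hydroxylase, fell by 0.14 with shKdm5c#1 (adjusted p = 0.0187) and gave -0.06 with shKdm5c#2 (adjusted p = 0.300). The Egln1 call was lost without control culture A (-0.11) or shKdm5c#1 culture B or C (-0.13 each, adjusted p = 0.0607 to 0.0809 over the 3), and a dimmer Egln1 probe gave -0.05 with shKdm5c#1 and was not called. Hif1a, the oxygen-regulated subunit, gave 0.08 with shKdm5c#1 (adjusted p = 0.158) and rose by 0.12 with shKdm5c#2 (adjusted p = 0.0250). That call was lost without any 1 of control cultures A, B and C or shKdm5c#2 cultures C and D (0.09 to 0.12, adjusted p = 0.0570 to 0.0764). Hif1a is regulated mostly through protein stability, which an array does not measure.

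**Figure D4:**
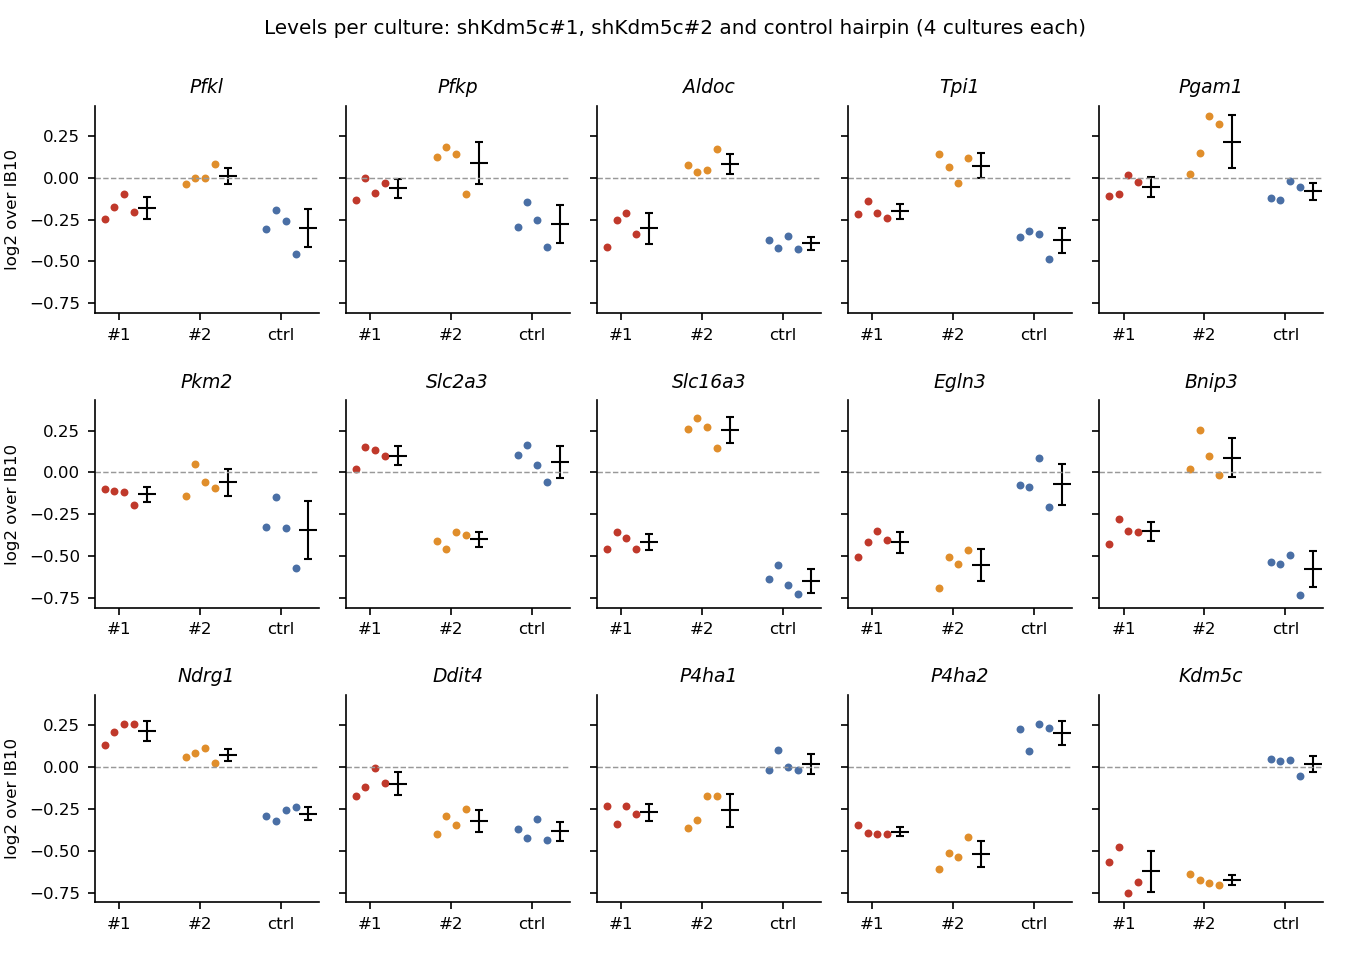
Log2 level over IB10 (vertical axis, dye effect removed) of 14 members and Kdm5c in the 4 cultures of shKdm5c#1 (#1), shKdm5c#2 (#2) and the control hairpin (ctrl), each point 1 culture and each bar the mean ± SD, with the dashed line at IB10. Slc16a3, Bnip3 and Tpi1 are lowest in the control cultures, while P4ha1, P4ha2, Egln3 and Kdm5c are lower in both knockdown lines than in the control line.

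Bnip3, a mitophagy receptor of the outer mitochondrial membrane, rose in both lines. It read -0.43, -0.28, -0.35 and -0.35 in shKdm5c#1, 0.02, 0.25, 0.10 and -0.02 in shKdm5c#2, and -0.53, -0.55, -0.49 and -0.73 in the control line. The 3 lines did not overlap. The differences were 0.22 with shKdm5c#1 (adjusted p = 0.0146) and 0.67 with shKdm5c#2 (1.59-fold, SE 0.060, adjusted p = 4.51e-07). The first was lost without control culture D (0.16, adjusted p = 0.0605) or shKdm5c#1 culture B (0.20, adjusted p = 0.0578). Its relative Bnip3l (also called Nix) rose by 0.27 with shKdm5c#2 (adjusted p = 8.86e-05) and gave 0.07 with shKdm5c#1 (adjusted p = 0.245). A dimmer Bnip3l probe gave 0.06 with shKdm5c#2 and was not called.

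Ndrg1, a stress gene induced by hypoxia and by other signals, was the member that rose most with shKdm5c#1. Its level was 0.13, 0.21, 0.26 and 0.26 in shKdm5c#1, 0.06, 0.09, 0.11 and 0.02 in shKdm5c#2, and -0.29, -0.32, -0.26 and -0.24 in the control line. No line overlapped another. The rises were 0.49 with shKdm5c#1 (1.41-fold, SE 0.037, adjusted p = 1.10e-07) and 0.35 with shKdm5c#2 (1.27-fold, adjusted p = 2.94e-06). Ddit4, an inhibitor of mTORC1 signalling, read -0.18, -0.12, -0.01 and -0.10 in shKdm5c#1, -0.40, -0.29, -0.35 and -0.25 in shKdm5c#2, and -0.37, -0.42, -0.31 and -0.43 in the control line. It rose by 0.29 with shKdm5c#1 (adjusted p = 0.000219), while shKdm5c#2 overlapped the control (0.06, adjusted p = 0.396). Ankrd37, a small ankyrin repeat gene, fell by 0.18 with shKdm5c#1 (adjusted p = 0.00703) and gave -0.02 with shKdm5c#2 (adjusted p = 0.869).

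Of the 4 secreted, pH-related and protein folding targets, Adm was called in the knockdown lines. Adm, which encodes adrenomedullin, fell by 0.18 with shKdm5c#1 and by 0.20 with shKdm5c#2 (SE 0.037, adjusted p = 0.00276 and 0.000623), and its knockdown cultures did not overlap the control cultures. Car9, the carbonic anhydrase used as a marker of hypoxic cells, gave -0.05 with shKdm5c#1 and -0.02 with shKdm5c#2 (adjusted p = 0.491 and 0.838), with intervals of -0.13 to 0.03 and -0.10 to 0.06. Vegfa, the vascular growth factor, gave -0.03 with shKdm5c#1 and -0.05 with shKdm5c#2 (adjusted p = 0.606 and 0.358) by its brightest probe. Of the 3 dimmer Vegfa probes, 2 fell with shKdm5c#2 (-0.22 and -0.25, limma over all probes, adjusted p = 0.000211 and 4.23e-05), so this gene is uncertain. Ero1l, an oxidase of protein folding in the endoplasmic reticulum, gave -0.05 with shKdm5c#1 and 0.12 with shKdm5c#2 (adjusted p = 0.643 and 0.124).

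The subunits of collagen prolyl 4-hydroxylase, which modify procollagen in the endoplasmic reticulum, fell in both lines. P4ha2 read -0.35, -0.40, -0.40 and -0.40 in shKdm5c#1, -0.61, -0.51, -0.54 and -0.42 in shKdm5c#2, and 0.23, 0.10, 0.26 and 0.24 in the control line. All 8 knockdown cultures lay below IB10 and all 4 control cultures above it. P4ha2 was at 66.4% of control with shKdm5c#1 (difference -0.59, SE 0.044, adjusted p = 9.77e-08) and at 60.5% with shKdm5c#2 (-0.72, adjusted p = 4.01e-09). A second P4ha2 probe stood above background on 3 of 12 arrays and gave -0.04 with shKdm5c#1 and 0.04 with shKdm5c#2. P4ha1 read -0.23, -0.34, -0.23 and -0.28 in shKdm5c#1, -0.36, -0.32, -0.18 and -0.17 in shKdm5c#2, and -0.02, 0.10, 0.00 and -0.02 in the control line. Its knockdown cultures lay below every control culture, with differences of -0.29 with shKdm5c#1 and -0.27 with shKdm5c#2 (SE 0.048, adjusted p = 0.000395 and 0.000438). A second P4ha1 probe of similar signal gave -0.17 with shKdm5c#1 and -0.12 with shKdm5c#2 (limma over all probes, adjusted p = 0.0119 and 0.0632), so the shKdm5c#2 call was not made by that probe.

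Kdm3a, a histone H3K9 demethylase that hypoxia induces, rose by 0.12 with shKdm5c#1 and by 0.11 with shKdm5c#2 (SE 0.030, adjusted p = 0.0119 and 0.0125). The shKdm5c#2 call for Kdm3a was lost without control culture D (0.09, adjusted p = 0.0503). Of the 3 dimmer Kdm3a probes, 0 were called with shKdm5c#1 and 2 rose with shKdm5c#2 (0.20 and 0.11, limma over all probes, adjusted p = 0.0137 and 0.0496). Markers of cells that make collagen were counted beside P4ha1 and P4ha2, and not all of them fell. Of the fibroblast markers 62.5% were called in each knockdown line. Of the extraembryonic endoderm markers 50% were called with shKdm5c#1 and 62.5% with shKdm5c#2. Over all genes these shares were 18.6% with shKdm5c#1 and 22.2% with shKdm5c#2. Of 8 fibroblast markers (all measured, 5 above background on all arrays), 1 rose and 4 fell in each knockdown line, and their mean level was -0.18 to -0.12 in shKdm5c#1 and -0.26 to -0.22 in shKdm5c#2, against -0.01 to 0.04 in the control line. Col1a1 carries much of that mean, at -0.66 over IB10 in shKdm5c#1, -1.37 in shKdm5c#2 and 0.09 in the control line, and the median marker stood at -0.08 in both knockdown lines and 0.04 in the control line. Of 8 extraembryonic endoderm markers (5 above background on all arrays), 0 rose and 4 fell with shKdm5c#1 and 0 rose and 5 fell with shKdm5c#2. Their means were -0.03 to 0.03 in shKdm5c#1 and -0.08 to -0.07 in shKdm5c#2, against 0.33 to 0.40 in the control line. Cubn, at -0.03 over IB10 in shKdm5c#1, -0.16 in shKdm5c#2 and 1.51 in the control line, carries much of the control mean, and the median marker stood at 0.00 in shKdm5c#1, -0.07 in shKdm5c#2 and 0.11 in the control line. Their part in the fall of P4ha1 and P4ha2 was not tested.

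The control line itself differed from untreated IB10 cells for these genes. Of the 38 members, 3 were higher and 19 lower in the control line, beside 26.3% of all genes called (12.6% higher and 13.7% lower) and 38.2% in the brightest 25%. Among the glycolytic enzymes 0 were higher and 10 lower (median -0.13), and among the other targets 3 were higher and 9 lower (median -0.05). The 6 largest were Slc16a3 (-0.65, adjusted p = 3.36e-10), Bnip3 (-0.58, adjusted p = 3.71e-08), Aldoc (-0.39, adjusted p = 1.35e-07), Ddit4 (-0.38, adjusted p = 1.26e-07), Tpi1 (-0.38, adjusted p = 2.02e-07) and Pkm2 (-0.34, adjusted p = 3.93e-05). All 4 control cultures lay below IB10 for each of these 6. P4ha2 (0.20, adjusted p = 9.67e-05), Adm (0.10, adjusted p = 0.00928) and Pdk1 (0.09, adjusted p = 0.00717) were the 3 that stood higher. The calls for Adm, Gpi1 and Pgk1 were each lost without 1 control culture (Adm 0.07 without C, Gpi1 -0.09 without A or without D, Pgk1 -0.19 without B).

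Against IB10, the counts over all members with shKdm5c#1 were close to those of the control line, but the genes differed in part. Slc16a3 and Bnip3 were called lower in both lines. Ndrg1, Pfkm and P4ha2 were called in opposite directions, at -0.28, -0.12 and 0.20 in the control line and 0.21, 0.10 and -0.39 in shKdm5c#1. In shKdm5c#1, 5 members were higher and 17 lower than IB10, beside 27% of all genes (12.5% higher and 14.5% lower) and 42.1% in the brightest 25%. In shKdm5c#2, 7 were higher and 13 lower, beside 26.2% of all genes (11.3% higher and 14.8% lower) and 39.2% in the brightest 25%. Leaving out each culture in turn, 16 of 22 calls held in shKdm5c#1 and 17 of 20 in shKdm5c#2. Under all 22 alternatives in processing and cultures, 7 held in shKdm5c#1 and 5 in shKdm5c#2. Among the enzymes, 1 was higher and 5 lower in shKdm5c#1 (median -0.06), and 2 were higher and 3 lower in shKdm5c#2 (median 0.00). Tpi1 stood at -0.20 in shKdm5c#1 (adjusted p = 0.000160) and at 0.07 in shKdm5c#2 (adjusted p = 0.115). Bnip3 stood at -0.35 in shKdm5c#1 (adjusted p = 1.08e-05) and at 0.09 in shKdm5c#2 (adjusted p = 0.151). Slc2a1 lay below IB10 in all 3 lines, at -0.45 in shKdm5c#1, -0.38 in shKdm5c#2 and -0.29 in the control line (adjusted p = 7.68e-06, 3.01e-05 and 0.000426). The control arrays enter the control line's comparison with IB10 and both knockdown comparisons with control, so these values are given side by side and are not independent of each other.

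The falls of P4ha1, P4ha2 and Egln3 were also present against IB10. P4ha2 was -0.39 in shKdm5c#1 and -0.52 in shKdm5c#2 (adjusted p = 1.42e-07 and 2.71e-09). P4ha1 was -0.27 in shKdm5c#1 and -0.26 in shKdm5c#2 (adjusted p = 1.61e-05 and 2.08e-05). Egln3 was -0.42 in shKdm5c#1 and -0.55 in shKdm5c#2 (adjusted p = 1.53e-06 and 4.05e-08). Hif1a was higher than IB10 by 0.09 in shKdm5c#1 and by 0.13 in shKdm5c#2 (adjusted p = 0.0215 and 0.00141), against 0.00 in the control line (adjusted p = 0.928). Its call held under 16 of the 22 alternatives in shKdm5c#1 and under 20 in shKdm5c#2.

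The knockdown lines also differed from each other. In the difference of shKdm5c#1 minus shKdm5c#2, 5 members were higher and 11 lower, beside 18.5% of all genes called (10.1% higher and 8.49% lower) and 29.8% in the brightest 25%. All 5 enzymes called (Aldoc, Tpi1, Pgam1, Ldhb and Pfkl) were lower in shKdm5c#1 (-0.38 to -0.19). The largest differences were Slc16a3 (-0.67, SE 0.046, adjusted p = 3.04e-08), Slc2a3 (0.50, adjusted p = 9.82e-07), Bnip3 (-0.44, adjusted p = 5.57e-05) and Aldoc (-0.38, adjusted p = 1.37e-05). For 6 members all shKdm5c#1 cultures lay above all shKdm5c#2 cultures and for 10 all lay below, beside 11.5% and 10.4% of all genes. Kdm5c differed by 0.06 (95% interval -0.05 to 0.16, adjusted p = 0.546).

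Taken over each class, the median level of the enzymes over IB10 lay between -0.13 and -0.05 in the cultures of shKdm5c#1, between -0.03 and 0.02 in shKdm5c#2 and between -0.18 and -0.10 in the control line. The control and shKdm5c#1 cultures overlapped, and shKdm5c#2 stood above both. The median of the other hypoxia targets lay between -0.10 and -0.07 in shKdm5c#1, between -0.11 and -0.04 in shKdm5c#2 and between -0.08 and 0.00 in the control line, and these ranges overlapped. This is a description of the chosen genes, with no test.

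**Figure D5:**
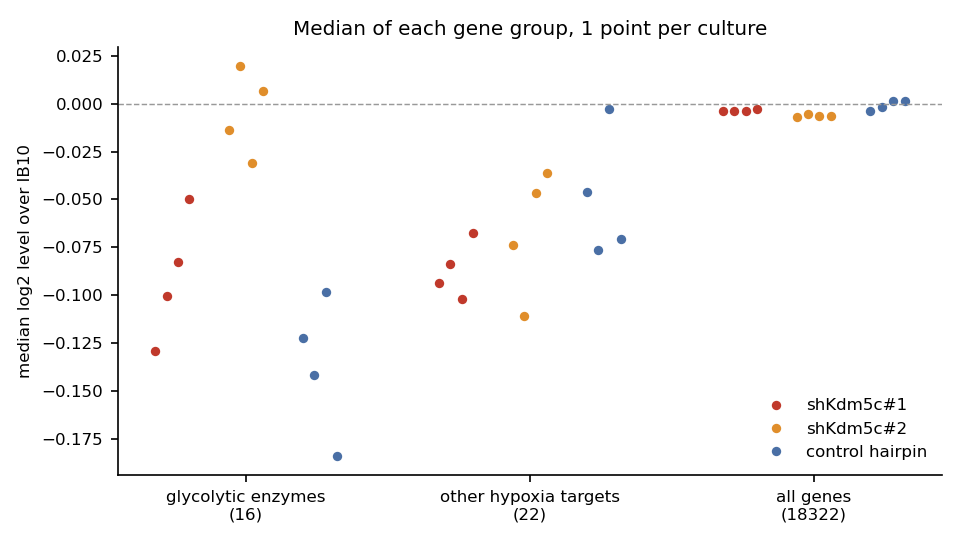
Median log2 level over IB10 (vertical axis) of the 16 glycolytic enzymes, the 22 other hypoxia targets and all 18322 genes, 1 point per culture, with shKdm5c#1 left, shKdm5c#2 in the middle and the control hairpin right within each group. For the enzymes the shKdm5c#2 cultures (-0.03 to 0.02) lie above the control cultures (-0.18 to -0.10), while for the other targets the lines overlap.

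Genes around the list gave mixed counts. Of 13 components of the HIF pathway, 1 rose and 2 fell with shKdm5c#1 and 4 rose and 2 fell with shKdm5c#2. That is 23.1% called with shKdm5c#1, beside 18.6% of all genes (29.5% of the brightest 25%), and 46.2% called with shKdm5c#2, beside 22.2% (33.3% of the brightest 25%). Epas1, which encodes the HIF-2 alpha subunit, fell by 0.63 with shKdm5c#1 and by 1.03 with shKdm5c#2 (adjusted p = 7.97e-06 and 1.56e-08) and stood 0.47 above IB10 in the control line (adjusted p = 2.23e-06). Of 21 further hypoxia targets, 2 rose and 4 fell with shKdm5c#1 and 3 rose and 5 fell with shKdm5c#2 (28.6% and 38.1% called, medians 0.01 with shKdm5c#1 and -0.04 with shKdm5c#2). Vldlr, a lipoprotein receptor, rose by 0.40 with shKdm5c#1 and by 0.42 with shKdm5c#2 (adjusted p = 6.15e-06 and 1.81e-06). Loxl2, a collagen cross-linking oxidase, fell by 0.19 with shKdm5c#1 and by 0.20 with shKdm5c#2 (adjusted p = 0.000485 and 0.000285). Edn1, which encodes endothelin, fell by 0.60 with shKdm5c#2 (adjusted p = 2.05e-07).

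Among 16 other isozymes, transporters and regulators of glycolysis, 2 rose and 1 fell with shKdm5c#1, and 3 rose and 2 fell with shKdm5c#2 (18.8% and 31.3% called, beside 18.6% and 22.2% of all genes). Eno3, the muscle enolase, rose by 0.39 with shKdm5c#1 and by 0.38 with shKdm5c#2 (adjusted p = 6.92e-07 and 5.82e-07). Of 6 genes of the pentose phosphate pathway, 0 were called with shKdm5c#1. With shKdm5c#2, 1 rose and 2 fell (50% called, beside 22.2% of all genes), and Pgd, the phosphogluconate dehydrogenase, rose by 0.38 (adjusted p = 6.53e-05). Of 20 genes of pyruvate dehydrogenase and the citric acid cycle, 3 rose and 4 fell with shKdm5c#1, and 3 rose and 6 fell with shKdm5c#2. That is 35% called with shKdm5c#1 and 45% with shKdm5c#2, beside the 29.5% and 33.3% of the brightest 25% of genes. Pdha1, the E1 alpha subunit of pyruvate dehydrogenase, rose by 0.45 with shKdm5c#1 (adjusted p = 6.63e-07).

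Ndrg1 and Ddit4 are also known to respond to other stresses, so the amino acid stress genes were counted beside them. Of 10 such genes, 8 rose and 0 fell with shKdm5c#1, and 5 rose and 1 fell with shKdm5c#2 (medians 0.64 with shKdm5c#1 and 0.17 with shKdm5c#2). That is 80% called with shKdm5c#1, beside 18.6% of all genes and 29.5% of the brightest genes, as defined above. With shKdm5c#2 it is 60%, beside 22.2% of all genes and 33.3% of the brightest. Atf4, the transcription factor of that response, rose by 1.11 with shKdm5c#1 and by 0.93 with shKdm5c#2 (adjusted p = 6.94e-12 and 1.08e-11) and stood at -0.47 against IB10 in the control line (adjusted p = 7.01e-10). Its part in the differences of Ndrg1 and Ddit4 was not tested.

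Markers of other cell types and states also differed between the lines. Of all genes, 18.6% were called with shKdm5c#1 and 22.2% with shKdm5c#2, and of the brightest genes, as defined above, 29.5% and 33.3%. For shKdm5c#1 and shKdm5c#2, the shares called were 50% and 60% of undifferentiated cell markers and 83.3% in each for streak and mesoderm. They were 71.4% and 57.1% for trophectoderm and 40% and 60% for neuroectoderm, in lists of 5 to 10 genes. All 10 markers of undifferentiated cells stood above background on all arrays, and 2 rose and 3 fell with shKdm5c#1 while 1 rose and 5 fell with shKdm5c#2, with mean levels of 0.08 to 0.12 in shKdm5c#1 and -0.19 to -0.13 in shKdm5c#2, against 0.10 to 0.16 in the control line. Of 6 primitive streak and mesoderm markers, 4 rose and 1 fell in each knockdown line, with means of -0.12 to -0.08 in shKdm5c#1 and 0.22 to 0.31 in shKdm5c#2, against -0.52 to -0.46 in the control line. Of 7 trophectoderm markers, 5 rose and 0 fell with shKdm5c#1 and 3 rose and 1 fell with shKdm5c#2, with means of 0.01 to 0.06 in shKdm5c#1 and -0.29 to -0.22 in shKdm5c#2, against -0.59 to -0.55 in the control line. Of 5 neuroectoderm markers, 1 rose and 1 fell with shKdm5c#1 and 2 rose and 1 fell with shKdm5c#2, with means of -0.04 to 0.00 in shKdm5c#1 and 0.09 to 0.11 in shKdm5c#2, against 0.05 to 0.10 in the control line. Their part in the differences of the glycolysis and hypoxia genes was not tested.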

How the data were processed

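Each of the 12 arrays carried 1 culture of a line and IB10 RNA in 2 dyes, with the dyes swapped between cultures, per the labels. Per the file headers, the deposited raw files hold spot and local background intensity for both channels, with no normalization recorded. The authors' derived files hold normalized intensity, and their deposited value table holds log2 of Cy5 over Cy3 (checked against the derived files, largest difference 5.00e-10, column medians -0.0026 to 0.016), both with a method not given in the sources used here. Array symbols came from the platform annotation (34186 gene probes with a symbol, 6988 without one), kept as spelled there.

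Signal Mean was corrected for Background Median by normexp (limma 3.58.1, R 4.3.3, offset 50). Loess then normalized each array, control spots having no weight, and every ratio was turned to sample over reference. The brightest probe stood for each of 18322 genes, without a filter on signal. One linear model of line and dye covered all 12 arrays (8 residual degrees of freedom, 7.58 more from empirical Bayes) and adjusted by Benjamini-Hochberg per comparison, with 0.05 as the threshold. Probes of members were also fitted with all 41174 gene probes, given as limma over all probes. Spots above background had a median signal at least 2 background SDs over the local background median. Values per culture have the dye effect removed.

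The members and gene lists were chosen with earlier results of these data known. Values per culture are given for Kdm5c, the 12 members with the largest difference among those called in either knockdown line against control, and the 6 largest called in the control line against IB10; of each other list, the 2 highest and 2 lowest called genes could be named. Epas1, Atf4 and other named list genes follow that rule. The letters A to D were not taken to pair the cultures of different lines (same-letter deviations correlated at r = -0.28 to 0.28). Dye is the batch the labels give and each line had both. Promoter sequences are RefSeq's for GRCm38.p6, searched over 250 bases before the start. Alternatives were median centring in place of loess, no background subtraction, an offset of 16, the authors' values, no dye term, each dye alone, the mean of all probes, leaving out the dimmest 25% of genes, leaving out each culture, and a block on the letter. Python 3.11.15 and matplotlib 3.10.9 made the figures.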

Additional observations from a re-analysis of the deposited data

Results flagged for a closer look

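Of 117 groups of 4 cultures tested, 5 held a culture whose gap to the nearest other, as a share of the group's range, passed Dixon's critical value, which chance gives in about 5% of groups. Pfkfb4 read 0.19 in culture A of shKdm5c#2, against -0.14 to -0.10 in the other 3 cultures of that line. P4ha1 read 0.10 in culture B of the control line, against -0.02 to 0.00 in the others. P4ha2 read -0.35 in culture A of shKdm5c#1, against -0.40 in each of the others. In culture D of the control line Kdm3a read -0.061, against -0.0038 to 0.0060 in the others, and Kdm5c read -0.052, against 0.038 to 0.048 in the others.

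A difference between shKdm5c#1 and shKdm5c#2 was called for 16 members in the direct comparison (shKdm5c#1 minus shKdm5c#2, limma, adjusted over all genes). Lower in shKdm5c#1 were Slc16a3 (-0.67), Bnip3 (-0.44), Aldoc (-0.38), Pdk1 (-0.33), Tpi1 (-0.27), Pgam1 (-0.27), Ldhb (-0.26), Bnip3l (-0.20), Pfkl (-0.19), Ero1l (-0.17) and Ankrd37 (-0.17). Higher in shKdm5c#1 were Slc2a3 (0.50), Ddit4 (0.22), Pfkfb3 (0.18), Ndrg1 (0.14) and P4ha2 (0.13). Pdk1 and Ero1l each had a second probe of similar signal. Each gave -0.04 for this difference (limma over all probes, adjusted p = 0.857 for Pdk1 and 0.684 for Ero1l), so those probes did not make the call. The calls for P4ha2 (adjusted p = 0.0455) and Ero1l (adjusted p = 0.0371) were the closest to the threshold, and leaving out single cultures moved their adjusted p to as much as 0.158 for P4ha2 (without shKdm5c#2 culture A) and 0.101 for Ero1l (without shKdm5c#1 culture A). Ankrd37 and Pfkl lost their calls without culture A of shKdm5c#1 (adjusted p = 0.0534 and 0.0610).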

How the results depend on the processing

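Without background subtraction, with an offset of 16, with the authors' values or without the dimmest 25% of genes, the counts of members called stayed within 1.5 times those reported. Median centring in place of loess, which leaves dye curves in the ratios, called 419, 791, 473, 985, 743 and 1203 genes and 3, 8, 3, 9, 7 and 7 members in shKdm5c#1 against control, shKdm5c#2 against control, shKdm5c#1 against shKdm5c#2, control against IB10, shKdm5c#1 against IB10 and shKdm5c#2 against IB10. The share of called genes that were higher was then 59.4% in place of 48.3% in the first, 71.7% in place of 54.2% in the third and 35.0% in place of 47.9% in the fourth. Without the dye term, 1939 genes and 10 members were called with shKdm5c#1 against control, 2604 genes with shKdm5c#2 against control, 2000 between the knockdown lines, 3160 in control against IB10 and 3191 in shKdm5c#1 against IB10.

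With Cy5 cultures alone (2 per line), 804 genes and 7 members were called with shKdm5c#1 against control, 1287 genes with shKdm5c#2 against control, 738 genes and 6 members between the knockdown lines, and 2735, 2893 and 2494 genes for control, shKdm5c#1 and shKdm5c#2 against IB10. With Cy3 cultures alone, 1936 genes and 11 members were called with shKdm5c#1 against control and 2255 genes between the knockdown lines. With 1 dye, the dye effect stays in every ratio over IB10: in Cy5 cultures Ldha gave 1.27, 1.23 and 1.04 and Pgk1 0.61, 0.48 and 0.19 in shKdm5c#1, shKdm5c#2 and control, Pgam1 gave 0.21 in shKdm5c#1, and in Cy3 cultures Pgam1 gave -0.073 in shKdm5c#2, all opposite in sign to both dyes together. With the mean of all probes, Vegfa in shKdm5c#1 against IB10 gave 0.045, also opposite.

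Leaving out each culture gave 11 to 19 members with shKdm5c#1 against control (11 without shKdm5c#1 culture B, 12 without control culture D) and 19 to 23 with shKdm5c#2. With shKdm5c#1 against control, 11 of 17 calls held without each culture and 3 under all 22 alternatives (Ndrg1, P4ha1 and P4ha2). With shKdm5c#2, 18 of 21 held without each culture and 7 under all 22 (Slc16a3, Bnip3, Aldoc, Ndrg1, Egln3, P4ha1 and P4ha2). With a replicate block on the letter (4 of 12 same-letter correlations were over 0.1), 19, 22, 17, 24, 23 and 22 members were called in the order of comparisons above. Each of these counts was above the one reported. Leaving 2 or 3 cultures in a line, the fits borrow their spread from the other lines. Signal limits Gapdh and Eno2, which lie near background, and Ldha, which passed 65000 in the reference channel on 2 arrays.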
